A study of Mus musculus with 7 samples.

Results

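The transcripts described are those of 7 aldehyde dehydrogenases (Aldh1a1, Aldh1a7, Aldh2, Aldh3a2, Aldh6a1, Aldh7a1 and Aldh9a1) and of the selenium binding proteins Selenbp1 and Selenbp2. They were measured in Sod2-/- and Sod2+/+ mouse erythroblasts on an Affymetrix expression array, where a probe set reads a stretch of a transcript rather than the whole. All probe sets whose platform gene symbol is one of the 9 genes alone were taken, which gave 16 of the 45037 probe sets on the array and 8 of the 18193 genes with a probe set of their own. Selenbp2 had 0 probe sets of its own. The 9 genes were chosen from results of the genotype comparison on these same arrays, so their genotype difference is given below as a description, with no p value for a single gene and with counts past a threshold set only beside the share of the whole array.

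Donors were Sod2-/- embryos and their Sod2+/+ littermates from matings of heterozygous B6-Sod2tm1Cje mice, taken between E13.5 and E16.5 of gestation. Fetal liver cells of either genotype (Ly5.2) were injected into C57BL/6 hosts congenic for Ly5.1 that were 11 to 15 weeks old and had received 1050 rad of gamma irradiation, so both groups share the irradiation, the transplantation and the wild-type host, whose own blood cells can persist in part. The sources used here do not give the time between transplantation and marrow harvest. Erythroblasts positive for TER-119 and CD71 and matched for size were sorted from marrow, and arrays are available for Sod2-/- replicates 31, 35 and 39 (n = 3) and Sod2+/+ replicates 17, 29, 33 and 37 (n = 4), which the design text calls biological replicates. Samples were sorted in pairs of both genotypes, but the labels do not say which arrays make a pair. Sod2 itself read 8.47, 8.09 and 8.61 in Sod2-/- replicates 31, 35 and 39, against 8.32, 8.62, 8.20 and 8.59 in Sod2+/+ replicates 17, 29, 33 and 37 (brightest of its probe sets). The knockout removes exon 3, and whether a Sod2 probe set lies in the deleted part was not worked out, so these values do not check the labels.

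Aldehyde dehydrogenases oxidise aldehydes to acids with NAD+ or NADP+. Some act on the reactive aldehydes released when membrane lipids are peroxidised, and others on a single intermediate of retinoid, amino acid, lipid or carnitine metabolism. The selenium binding proteins bind selenium without containing selenocysteine, and human SELENBP1 is a methanethiol oxidase that yields hydrogen sulfide. Sod2 encodes the superoxide dismutase of the mitochondrial matrix, and its loss in red cell precursors exposes mitochondria to superoxide.

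Each of the 2 families holds a pair of closely related genes that lie near each other on a chromosome. The regions around their start sites are shown to describe how alike each pair is there, and because Aldh1a1 and Aldh1a7 differed in the size of their genotype difference. Where the probes lie in the transcripts was not worked out, so this likeness does not show what a probe set can separate. RefSeq promoter sequences (GRCm38.p6, 300 bases around each start) were found for 7 of the 9 genes and gave 9 promoters, since Aldh1a1 and Aldh6a1 have more than one start. In the Selenbp pair, at chr3:94693323-94693622 (plus strand) for Selenbp2 and chr3:94932833-94933132 (plus strand) for Selenbp1, 267 of 276 aligned bases were identical (96.7%). Capitals mark the bases with no identical partner in the other gene.
Selenbp2: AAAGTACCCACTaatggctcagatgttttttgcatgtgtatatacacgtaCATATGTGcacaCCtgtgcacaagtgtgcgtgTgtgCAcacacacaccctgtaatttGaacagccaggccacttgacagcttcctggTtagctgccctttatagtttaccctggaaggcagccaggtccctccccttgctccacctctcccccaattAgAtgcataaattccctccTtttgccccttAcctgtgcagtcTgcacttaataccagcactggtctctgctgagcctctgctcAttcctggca
Selenbp1: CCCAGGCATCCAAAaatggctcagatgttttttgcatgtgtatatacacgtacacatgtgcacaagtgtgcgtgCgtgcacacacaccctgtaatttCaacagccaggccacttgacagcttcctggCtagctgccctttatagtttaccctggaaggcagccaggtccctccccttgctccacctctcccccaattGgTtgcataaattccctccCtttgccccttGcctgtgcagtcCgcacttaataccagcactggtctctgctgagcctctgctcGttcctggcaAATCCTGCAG

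In the Aldh1a pair, the promoter of Aldh1a7 at chr19:20727507-20727806 (minus strand) and that of the second start of Aldh1a1 at chr19:20601718-20602017 (plus strand) aligned over bases 141 to 300, where 154 of 159 aligned bases were identical (96.9%). At the first Aldh1a1 start only 15 of 17 aligned bases matched. Capitals mark matches to a GATA motif (AGATAA, or else TGATAA, or else AGATAG, or else TGATAG), to CCAAT and to the octamer ATGCAAAT, searched on both strands.
Aldh1a7: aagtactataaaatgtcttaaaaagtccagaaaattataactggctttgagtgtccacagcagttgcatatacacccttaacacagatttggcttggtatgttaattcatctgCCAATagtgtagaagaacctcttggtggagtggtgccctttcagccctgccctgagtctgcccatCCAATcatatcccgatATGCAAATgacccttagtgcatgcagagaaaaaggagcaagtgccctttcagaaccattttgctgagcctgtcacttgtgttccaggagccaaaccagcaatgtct
Aldh1a1, second start: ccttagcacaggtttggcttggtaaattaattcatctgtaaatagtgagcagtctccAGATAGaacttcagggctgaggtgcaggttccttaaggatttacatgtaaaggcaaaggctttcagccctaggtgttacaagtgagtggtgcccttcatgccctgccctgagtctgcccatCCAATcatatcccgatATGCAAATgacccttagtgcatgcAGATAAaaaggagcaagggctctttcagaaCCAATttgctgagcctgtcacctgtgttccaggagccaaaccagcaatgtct
Both held the octamer, which 1.74% of all 32851 RefSeq promoters of this length hold, and 2 CCAAT matches each (37.4% of all promoters hold at least 1). The second start of Aldh1a1 also had 2 GATA matches, for which Aldh1a7 had 0, and 29.8% of all promoters hold at least 1. Over the 9 promoters, 4 held a GATA match, 8 a CCAAT match, 2 the octamer, 5 a KLF match (CCNCNCCC, 49.5% of all promoters) and 1, that of Aldh9a1, an antioxidant response element match (TGACNNNGC, 12.4%). These are letter matches, and nothing was measured on binding to them.

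Genotypes were compared on the deposited log2 values by limma over all 45037 probe sets with Benjamini-Hochberg adjustment, and every log2 fold change is Sod2-/- minus Sod2+/+. Of all probe sets, 1275 were lower in Sod2-/- samples past an adjusted p of 0.05 (2.83%) and 255 were higher (0.566%). Of the 16 probe sets of the chosen genes, 3 were past that threshold and lower (1418601_at of Aldh1a7, 1448143_at of Aldh2 and 1417580_s_at, which the platform assigns to Selenbp1) and 0 were past it and higher, and all 3 were at least 1.5-fold lower (1.81% of all probe sets are). The brightest Selenbp1 probe set, 1450699_at, was not past the threshold, so that on the brightest probe set of each gene 2 of 8 were past it and lower (4.47% of all genes are). On these probe sets, 8 of 8 log2 fold changes were below 0, as were 45.8% of those of all genes. Given how the genes were chosen, these counts are a description only. In 6 of the 16, all Sod2-/- values lay below all Sod2+/+ values (10.2% of all probe sets do so), in 1 all lay above (7.84%) and in 9 the genotypes overlapped. Precision is limited by the small number of arrays. Brighter probe sets were called lower in Sod2-/- samples more often. In a fit of only the 22518 probe sets above the median one, 2076 were lower and 360 higher. The shares over all genes printed beside the lists below do not allow for brightness. Fewer cells of a type and less RNA per cell cannot be told apart on these arrays.

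**Figure D1:**
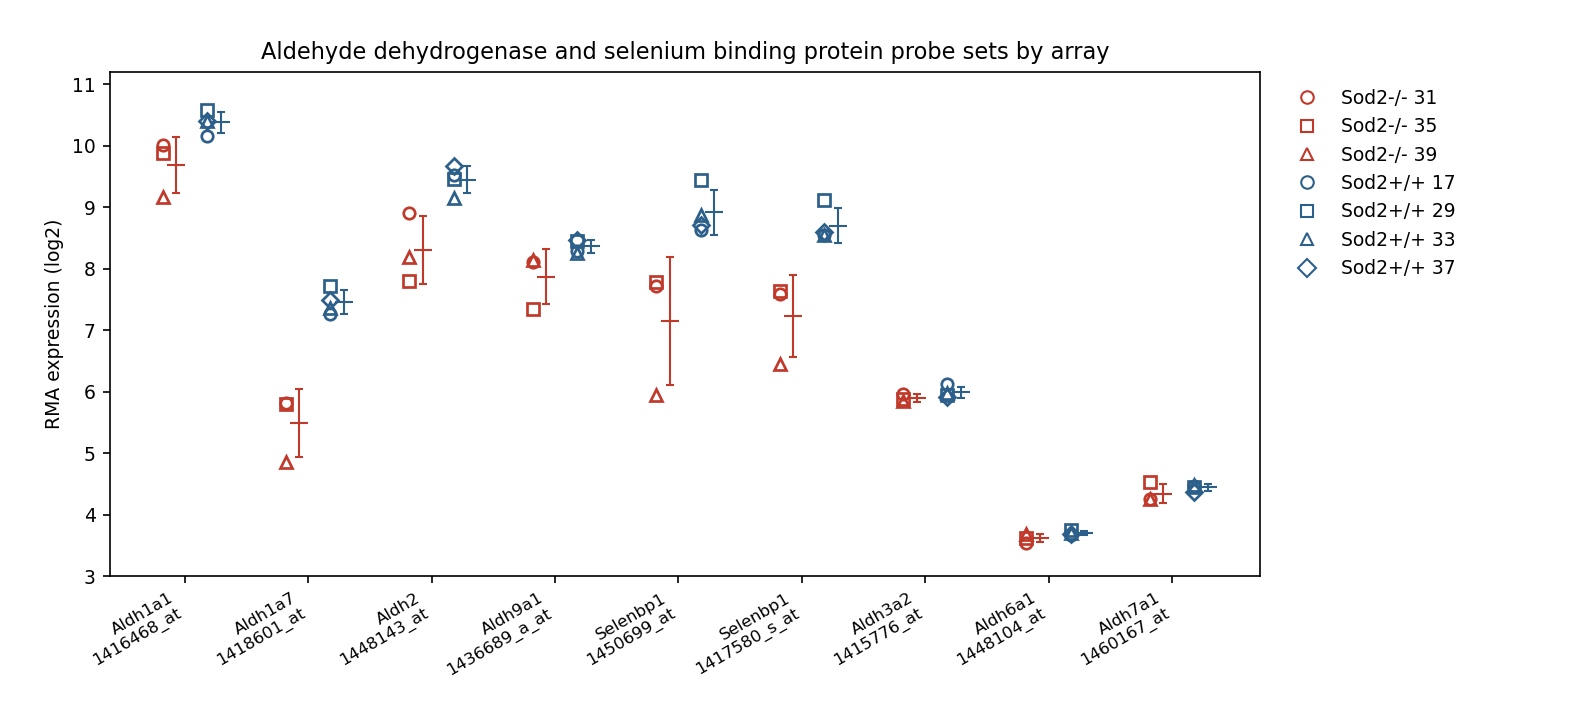
RMA expression (log2, y axis) of the brightest probe set of each measured gene and of the second Selenbp1 probe set (x axis) in single arrays, with red symbols for Sod2-/- (n = 3, left) and blue for Sod2+/+ (n = 4, right), and the group mean with its SD beside them. Sod2-/- symbols lie below all Sod2+/+ symbols for Aldh1a1, Aldh1a7, Aldh2, Aldh9a1 and both probe sets assigned to Selenbp1, and overlap them for Aldh3a2, Aldh6a1 and Aldh7a1. Selenbp1 and Selenbp2 cannot be told apart on the second of these, 1417580_s_at.

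Aldh1a1 makes retinoic acid from retinal in the cytosol and is among the enzymes behind the aldehyde dehydrogenase activity that marks hematopoietic stem cells. Its probe set 1416468_at read 10.02, 9.89 and 9.17 in Sod2-/- replicates 31, 35 and 39, against 10.16, 10.58, 10.40 and 10.40 in Sod2+/+ replicates 17, 29, 33 and 37. The genotypes did not overlap, but Sod2-/- replicate 31 was only just below Sod2+/+ replicate 17, and replicate 39 stood apart as the lowest. The log2 fold change was -0.69 with a standard error of 0.19, a 1.62-fold lower value in Sod2-/- samples. Without Sod2-/- replicate 39 it was -0.43. The median over the probe sets whose mean lay within 0.5 log2 units of it was -0.19.

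Aldh1a7 is a rodent paralog of Aldh1a1 with little activity towards retinal, and it had the largest difference of the chosen genes. Probe set 1418601_at read 5.81, 5.80 and 4.85 in Sod2-/- replicates 31, 35 and 39, against 7.26, 7.71, 7.37 and 7.50 in Sod2+/+ replicates 17, 29, 33 and 37. All Sod2-/- samples were more than 1 log2 unit below the lowest Sod2+/+ sample, and replicate 39 was again the lowest. Means were 5.49 ± 0.55 in Sod2-/- and 7.46 ± 0.19 in Sod2+/+ samples (SD, n = 3 and n = 4), a log2 fold change of -1.97 with a standard error of 0.23 or a 3.93-fold lower value. Probe sets of like brightness had a median of -0.13.

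Aldh2, the mitochondrial enzyme for acetaldehyde and for 4-hydroxynonenal, a product of lipid peroxidation, has 5 probe sets. The brightest, 1448143_at, targets the RefSeq transcript and read 8.91, 7.80 and 8.20 in Sod2-/- replicates 31, 35 and 39, against 9.52, 9.46, 9.14 and 9.67 in Sod2+/+ replicates 17, 29, 33 and 37. Replicate 35 was the lowest here, where for Aldh1a1 and Aldh1a7 it was replicate 39, and replicate 31 lay nearest to Sod2+/+. The log2 fold change was -1.15 with a standard error of 0.24, a 2.21-fold lower value. Probe sets of like brightness had a median of -0.27. The other 4 Aldh2 probe sets were dimmer, with means between 3.96 and 5.73 in Sod2-/- and between 3.90 and 5.75 in Sod2+/+ samples. In all 4 the genotypes overlapped. Their log2 fold changes were -0.02 for 1437410_at, 0.61 for 1434987_at, -0.10 for 1434988_x_at and 0.06 for 1457155_at, and the mean over all 5 probe sets differed by -0.12, so the Aldh2 difference rests on 1 probe set.

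Selenbp1, the methanethiol oxidase, has 2 probe sets by the platform's assignment. Probe set 1450699_at read 7.71, 7.79 and 5.94 in Sod2-/- replicates 31, 35 and 39, against 8.64, 9.44, 8.88 and 8.70 in Sod2+/+ replicates 17, 29, 33 and 37. All Sod2-/- samples were below all Sod2+/+ samples, and replicate 39 was far below the other Sod2-/- samples. The log2 fold change was -1.77 with a standard error of 0.42, a 3.41-fold lower value. Without replicate 39 it was -1.17. Probe sets of like brightness had a median of -0.29.

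Probe set 1417580_s_at read 7.59, 7.64 and 6.45 in the same Sod2-/- replicates, against 8.54, 9.12, 8.54 and 8.59 in the Sod2+/+ ones. The order of the Sod2-/- samples was the same as for 1450699_at, and its log2 fold change was -1.47 with a standard error of 0.28, a 2.77-fold lower value. The platform assigns it to Selenbp1 alone, while the transcript accession it targets belongs to Selenbp2 in the RefSeq table, and the suffix _s_at denotes probes shared between transcripts. Selenbp2, whose product was described as an acetaminophen-binding protein of mouse liver, and Selenbp1 can therefore not be told apart on this probe set. Probe sets of like brightness had a median of -0.29.

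Aldh9a1 oxidises trimethylaminobutyraldehyde in carnitine synthesis. Its probe set 1436689_a_at read 8.11, 7.35 and 8.14 in Sod2-/- replicates 31, 35 and 39, against 8.28, 8.45, 8.26 and 8.46 in Sod2+/+ replicates 17, 29, 33 and 37. Only replicate 35 was clearly below Sod2+/+ samples. The log2 fold change was -0.50 with a standard error of 0.18, beside a median of -0.29 for probe sets of like brightness, and it was -0.24 without replicate 35. The genotypes overlapped on the other probe set, 1437398_a_at, with a log2 fold change of -0.18.

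Aldh3a2, the fatty aldehyde dehydrogenase whose human counterpart is mutated in Sjögren-Larsson syndrome, read 5.97, 5.88 and 5.84 in Sod2-/- replicates 31, 35 and 39, against 6.12, 5.95, 5.98 and 5.92 in Sod2+/+ replicates 17, 29, 33 and 37. Genotypes overlapped, and the log2 fold change was -0.09 with a standard error of 0.07. Aldh6a1, the mitochondrial methylmalonate semialdehyde dehydrogenase of valine and thymine breakdown, read 3.54 to 3.68 in Sod2-/- and 3.67 to 3.75 in Sod2+/+ samples, below the array medians of 4.45 to 4.54, with a log2 fold change of -0.08.

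Aldh7a1, the lysine breakdown enzyme antiquitin, was near or below the array medians on its 3 probe sets. Their log2 fold changes were -0.10 for 1460167_at and 0.17 for 1448137_at, both with overlapping genotypes, and 0.20 for 1415902_at, with a standard error of 0.07. On the last, values were 4.14, 4.12 and 4.24 in Sod2-/- replicates 31, 35 and 39, against 3.99, 3.90, 4.00 and 3.96 in Sod2+/+ replicates 17, 29, 33 and 37, the single probe set of the 16 with all Sod2-/- samples higher.

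**Figure D2:**
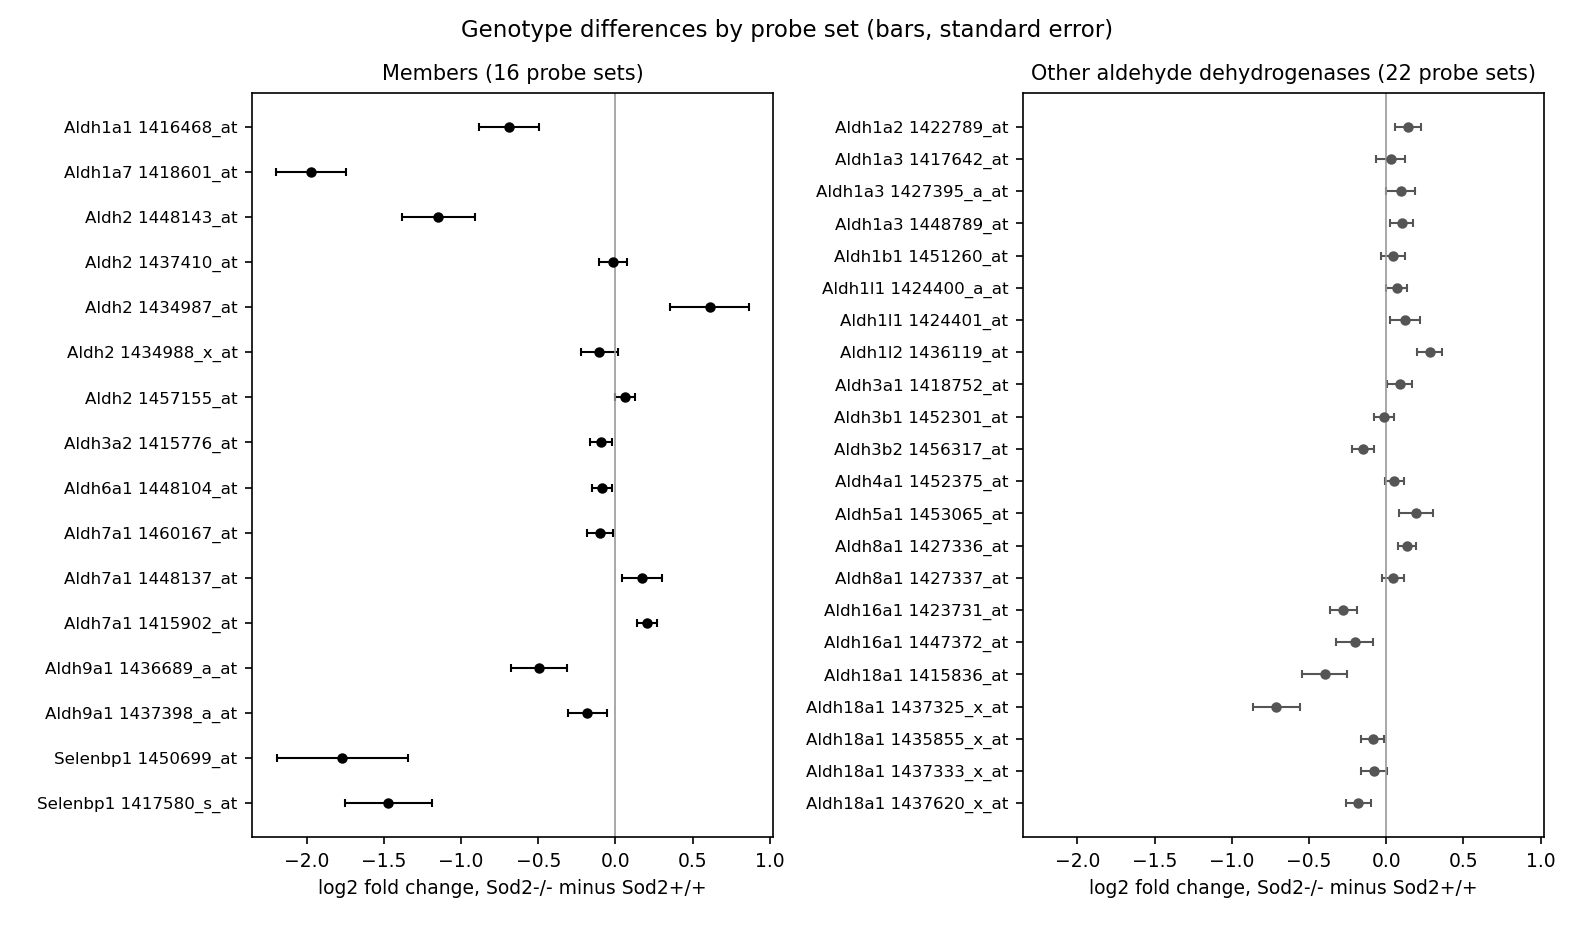
Log2 fold change, Sod2-/- minus Sod2+/+ (x axis, points with standard errors), of the 16 probe sets of the chosen genes (left) and of 22 probe sets of other aldehyde dehydrogenases (right). Aldh1a7, Selenbp1 and one Aldh2 probe set reach -1.97 to -1.15, and the lowest on the right is an Aldh18a1 probe set at -0.71.

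Other members of the aldehyde dehydrogenase family, which the choice did not take, were tested in the fit over all probe sets. Because the choice was made from results of the same comparison, the genes it left may hold fewer differences for that reason alone. Their counts therefore do not set the chosen genes apart from the family. Of 14 such genes 13 were measured. On their brightest probe sets 0 were past the limma threshold in either direction, beside 4.47% of all genes lower and 0.412% higher. An unadjusted p under 0.05 was found for 3, beside 4567 of all 18193 genes. The median log2 fold change was 0.05, beside 0.02 over all genes. The largest differences were -0.40 for Aldh18a1, the enzyme that starts proline synthesis (adjusted p = 0.175), 0.28 for Aldh1l2, the mitochondrial formyltetrahydrofolate dehydrogenase (adjusted p = 0.100), and -0.28 for Aldh16a1 (adjusted p = 0.129). Over all 22 probe sets of these genes 1 was past the threshold, the dimmer Aldh18a1 probe set 1437325_x_at (log2 fold change -0.71, standard error 0.15, adjusted p = 0.0441). That call was lost when any array other than Sod2+/+ replicate 33 was left out, with an adjusted p of 0.0800 to 0.119. Aldh1a2 and Aldh1a3, the other retinal dehydrogenases of the Aldh1a group, had log2 fold changes of 0.14 and 0.03 on their brightest probe sets, at values below the array medians or close to them. Several more of these genes, Aldh1l2 among them (3.73 to 4.22), also read below the array medians in every array. At such values a lack of difference says little.

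Around Aldh1a1, 0 of 22 measured genes of retinoid metabolism and its receptors were past the threshold of limma, with a median log2 fold change of 0.06. An unadjusted p under 0.05 was found for 2 of them, beside 4567 of all 18193 genes. Among 19 measured aldehyde and ketone reductases and alcohol dehydrogenases, enzymes that remove aldehydes by reduction or handle the alcohols, 1 fell and 0 rose (beside 4.47% and 0.412% of all genes), with a median of 0.02, and 7 had an unadjusted p under 0.05. The mean over the list was 5.25 to 5.32 in Sod2-/- and 5.38 to 5.43 in Sod2+/+ samples. The gene that fell was Cbr1, a cytosolic carbonyl reductase (log2 fold change -0.55, adjusted p = 0.0422), whose adjusted p was 0.0698 to 0.143 without any one of Sod2+/+ replicates 29, 33 and 37 and Sod2-/- replicates 35 and 39.

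Aldh6a1 acts at the end of valine breakdown, and of 22 measured genes of valine, leucine and isoleucine breakdown 6 fell and 1 rose (beside 4.47% and 0.412% of all genes), with a median of -0.15. Hibch and Hibadh, the hydrolase and the dehydrogenase that carry out the steps just before Aldh6a1, had log2 fold changes of -0.60 (adjusted p = 0.0381) and -0.91 (adjusted p = 0.0278). Hibadh read 5.75, 5.46 and 6.10 in Sod2-/- replicates 31, 35 and 39, against 6.45, 6.66, 6.64 and 6.94 in Sod2+/+ replicates 17, 29, 33 and 37, with no overlap. Acat1, the mitochondrial thiolase (-0.76), Hsd17b10, a dehydrogenase of isoleucine breakdown (-0.75), Bckdk, the kinase that inhibits the branched-chain ketoacid dehydrogenase (-0.68), and Pccb, a subunit of propionyl-CoA carboxylase (-0.61), also fell, while Acadsb, the short/branched-chain acyl-CoA dehydrogenase, rose (0.40, adjusted p = 0.0455). The count of falling genes was 0 without Sod2+/+ replicate 29 or 37 and at most 4 without any other single array. Each of these calls was lost in 4 to 6 of the 7 fits that left out an array. Hibadh lost its own without Sod2+/+ replicate 29 or 37 or Sod2-/- replicate 31 or 35 (adjusted p = 0.0588 to 0.0856).

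Of 16 measured genes of lysine breakdown and carnitine synthesis, the pathways of Aldh7a1 and Aldh9a1, 2 fell and 0 rose (beside 4.47% and 0.412% of all genes), with a median of 0.03. These were Dlst, a subunit of ketoacid dehydrogenases (-0.48, adjusted p = 0.0498), and Cpt2, the inner carnitine palmitoyltransferase of mitochondria (-0.46, adjusted p = 0.0406). Both calls were lost whichever array was left out. Shmt2, a mitochondrial serine hydroxymethyltransferase listed for its aldolase step, read 9.37, 8.74 and 9.53 in Sod2-/- replicates 31, 35 and 39, against 9.15, 6.38, 6.49 and 7.34 in Sod2+/+ replicates 17, 29, 33 and 37, a log2 fold change of 1.88 that was not past the threshold (adjusted p = 0.128). Sod2+/+ replicate 17 was as high as the Sod2-/- samples there. Of 13 measured genes of fatty aldehyde, sphingosine and plasmalogen metabolism, around Aldh3a2, 1 fell and 0 rose (beside 4.47% and 0.412% of all genes), with a median of -0.29. Log2 fold changes were below 0 for 12 and above 0 for 1. An unadjusted p under 0.05 was found for 8, beside 4567 of all 18193 genes. The list mean was 5.36 to 5.38 in Sod2-/- and 5.56 to 5.85 in Sod2+/+ samples. The gene that fell past the threshold was Sphk1, a sphingosine kinase (-0.73, adjusted p = 0.0419), and this call too was lost whichever array was left out.

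Around the selenium binding proteins, 2 of 14 measured genes of sulfide and thiol metabolism fell and 0 rose (beside 4.47% and 0.412% of all genes), with a median of -0.17. Sqor, the mitochondrial quinone oxidoreductase that takes up hydrogen sulfide, read 6.86, 6.41 and 5.81 in Sod2-/- replicates 31, 35 and 39, against 7.33, 7.64, 7.46 and 7.68 in Sod2+/+ replicates 17, 29, 33 and 37. Genotypes did not overlap and replicate 39 was the lowest, as for Selenbp1. The log2 fold change was -1.17 with a standard error of 0.22 (adjusted p = 0.0305). Ahcy, which splits S-adenosylhomocysteine, had -0.59 (adjusted p = 0.0237). Ethe1, the persulfide dioxygenase that follows Sqor, had -0.84 and was not past the threshold (adjusted p = 0.0777). Sqor lost its call without Sod2+/+ replicate 29, 33 or 37 or Sod2-/- replicate 35 (adjusted p = 0.0508 to 0.0977), and Ahcy without Sod2+/+ replicate 29 or 37 or Sod2-/- replicate 35 (0.0502 to 0.0784).

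Of 26 measured selenoproteins and genes of selenium handling, 3 fell and 0 rose (beside 4.47% and 0.412% of all genes), and the median was -0.15. Log2 fold changes were below 0 for 23 and above 0 for 3. The list mean was 6.90 to 7.07 in Sod2-/- and 7.09 to 7.30 in Sod2+/+ samples. Probe sets as bright as 1437398_a_at of Aldh9a1, with means of 6.99 and 7.17, had a median of -0.21. The 3 that fell past the threshold were Selenoh, a nuclear selenoprotein (-0.94, adjusted p = 0.0384), Sephs2, which makes the selenophosphate used for selenocysteine (-0.57, adjusted p = 0.0221), and Selenoo, a mitochondrial selenoprotein (-0.43, adjusted p = 0.0361). Selenoh and Selenoo kept their calls only when Sod2+/+ replicate 33 was the array left out, with adjusted p values of 0.0579 to 0.127 and 0.0526 to 0.123 otherwise, and Sephs2 lost its own without Sod2+/+ replicate 29 or Sod2-/- replicate 35 or 39 (adjusted p = 0.0523 to 0.0813).

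**Figure D3:**
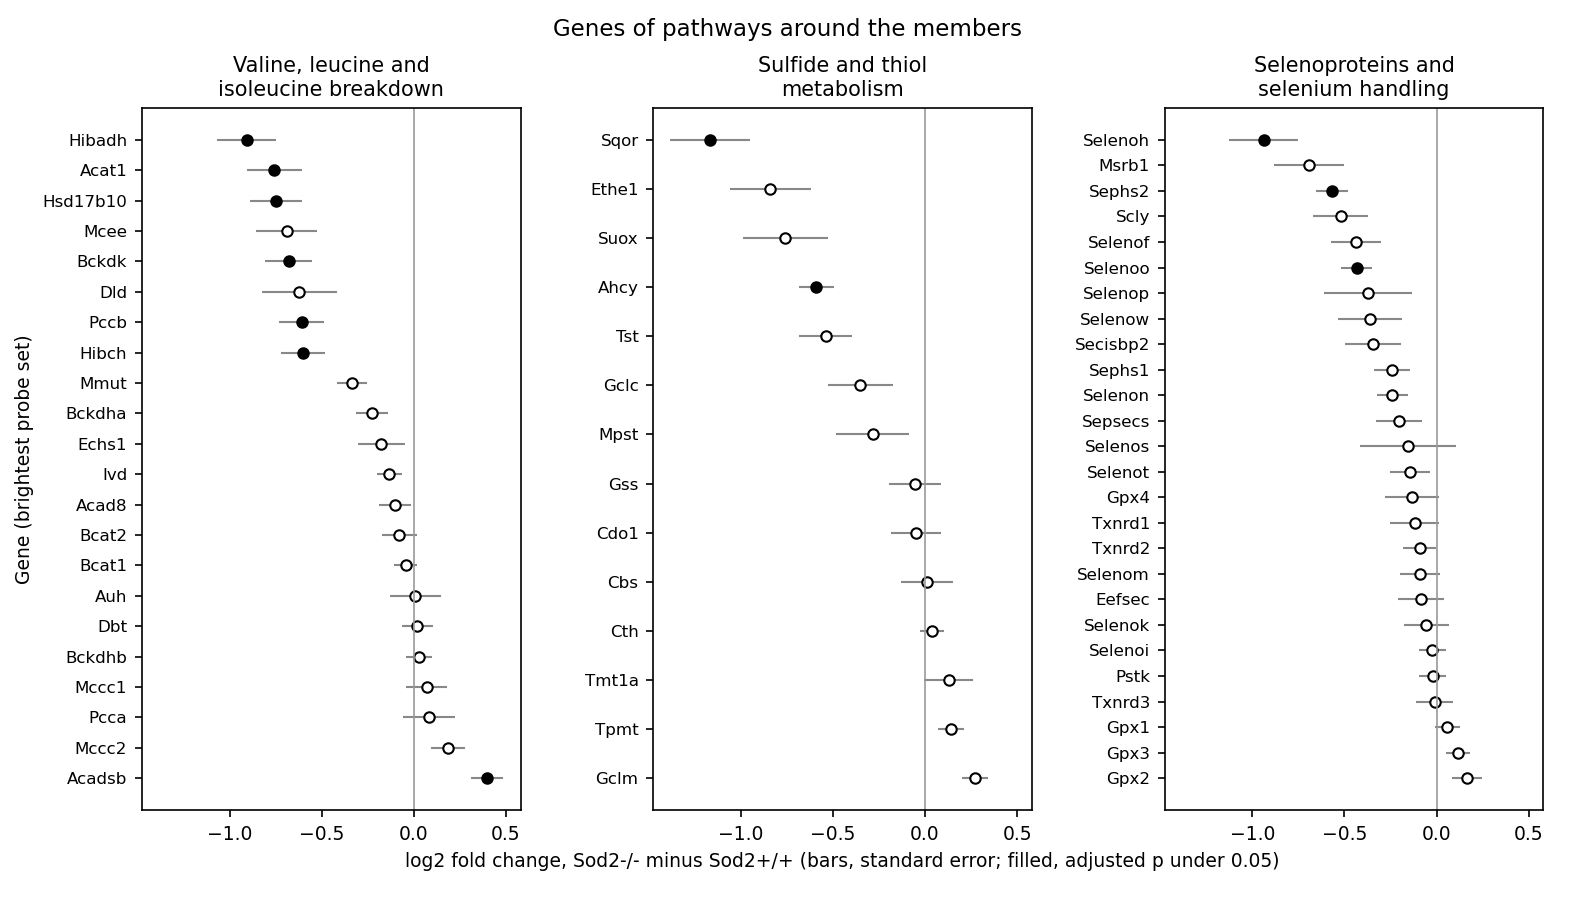
Log2 fold change, Sod2-/- minus Sod2+/+ (x axis, points with standard errors), of genes of valine, leucine and isoleucine breakdown, of sulfide and thiol metabolism and of selenoproteins and selenium handling. Filled points have an adjusted p under 0.05, and these include Hibadh at -0.91, Sqor at -1.17 and Selenoh at -0.94.

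The genes whose centred values over the 7 arrays were most like those of Aldh1a7, by root mean square difference over 18185 genes, were Cnp (0.206), Spib (0.247) and Cd79a (0.272). Values were centred on the mean of all 7 arrays, so the genotype difference enters this distance. Genes with a difference of like size come out as near, here with log2 fold changes of -1.84, -1.68 and -1.78. The likeness is therefore a description and does not link the genes beyond that difference. Cnp, a cyclic nucleotide phosphodiesterase known from myelin, read 6.46, 6.42 and 5.96 in Sod2-/- replicates 31, 35 and 39, against 8.02, 8.08, 8.17 and 8.24 in Sod2+/+ replicates 17, 29, 33 and 37. Spib, a transcription factor of B and plasmacytoid dendritic cells, and Cd79a, a chain of the B cell receptor, are in the B cell marker list described below. The genes most like Selenbp1 were C1qtnf12 (0.238), which encodes the secreted protein adipolin, Stard10 (0.312), a lipid transfer protein, and Gstt1 (0.381), a glutathione transferase. C1qtnf12 read 9.97, 9.90 and 8.24 in Sod2-/- replicates 31, 35 and 39, against 11.04, 11.07, 10.88 and 10.91 in Sod2+/+ replicates 17, 29, 33 and 37. As with Selenbp1, replicate 39 was far below replicates 31 and 35.

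Genes next to the 2 paralog pairs were read as well, 8 protein-coding genes on each side and those between, a list made after the values were seen. Around Aldh1a1 and Aldh1a7 on chromosome 19, 15 of 16 genes were measured, 0 of them between the pair, and 0 were past the limma threshold. Their log2 fold changes ran from -0.96 for Anxa1, a phospholipid-binding protein (adjusted p = 0.168), to 0.70 for Zfand5, a proteasome regulator (adjusted p = 0.0785). Around Selenbp1 and Selenbp2 on chromosome 3, 18 of 19 genes were measured and 3 fell (beside 4.47% of all genes), namely Psmb4, a proteasome subunit that lies between the pair (-0.40, adjusted p = 0.0405), Vps72, of chromatin remodelling complexes (-0.64, adjusted p = 0.0453), and Scnm1, a splicing factor (-0.57, adjusted p = 0.0368). Each of these 3 calls was lost in 6 of the 7 fits that left out an array. The others between the pair, Cgn and Pogz, had 0.03 (adjusted p = 0.844) and -0.35 (adjusted p = 0.108).

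The sort was checked against marker lists. The mean log2 value of 13 measured erythroid markers was 11.49 to 11.69 in Sod2-/- and 11.44 to 11.56 in Sod2+/+ samples. Of them 0 were past the limma threshold in either direction. Their log2 fold changes were above 0 for 11 and below 0 for 2. An unadjusted p under 0.05 was found for 3, beside 4567 of all 18193 genes. Of 10 markers of late erythroblasts 1 rose (beside 0.412% of all genes), Tspo2 (0.52, adjusted p = 0.0114), with a list mean of 10.72 to 10.77 in Sod2-/- and 10.55 to 10.75 in Sod2+/+ samples. Log2 fold changes in that list were above 0 for 8 and below 0 for 2. Of 10 markers of stem and progenitor cells 1 fell (beside 4.47% of all genes), Myb (-1.24, adjusted p = 0.0303), and that call was lost without Sod2+/+ replicate 29, 33 or 37 or Sod2-/- replicate 31 or 35 (adjusted p = 0.0504 to 0.0835). The median log2 fold change of that list was 0.08, with 7 above 0 and 3 below.

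Some markers of other marrow cells differed between the genotypes. Of 13 B cell markers 7 fell and 0 rose, beside 4.47% and 0.412% of all genes (6 or 7 of the markers fell when an array was left out). The mean of the B cell markers was 5.02 to 5.24 in Sod2-/- and 5.82 to 5.95 in Sod2+/+ samples. Cd79a read 5.21, 5.38 and 4.98 in Sod2-/- replicates 31, 35 and 39, against 7.01, 7.08, 6.62 and 7.15 in Sod2+/+ replicates 17, 29, 33 and 37. Of 8 eosinophil, basophil and mast cell markers 3 fell (Epx, Prg2 and Mcpt8) and 0 rose (beside 4.47% and 0.412% of all genes), with means of 5.26 to 5.48 in Sod2-/- and 5.70 to 6.28 in Sod2+/+ samples, and 0 were called without Sod2+/+ replicate 29 or 37 or Sod2-/- replicate 35 or 39. The median log2 fold change of these 8 was only -0.17, with 6 below 0 and 2 above. Only the 3 that fell had an unadjusted p under 0.05, as did 4567 of all 18193 genes. The 14 neutrophil markers all had negative log2 fold changes (median -0.91) and 0 were past the limma threshold (12 had an unadjusted p under 0.05), although 11 were when Sod2-/- replicate 31 was left out. With chip lot as a block 8 were, and 12 within the lot that held the Sod2+/+ arrays, but both of these counts rest on Sod2-/- replicate 35 alone, the sample with the lowest mean of the list. Their means were 10.53, 9.21 and 9.85 in Sod2-/- replicates 31, 35 and 39, against 10.50 to 10.95 in Sod2+/+ samples. Aldh2 had the same order within Sod2-/-, with replicate 35 lowest and replicate 31 highest.

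Of 12 macrophage markers 0 were past the limma threshold and 0 had an unadjusted p under 0.05, but their mean was 6.00 in Sod2-/- replicate 39, against 4.86 and 4.82 in Sod2-/- replicates 31 and 35 and 4.77 to 4.89 in Sod2+/+ samples. C1qa, C1qb and C1qc, the chains of complement C1q made by macrophages, read 7.65, 8.09 and 8.33 in that replicate and between 3.75 and 4.68 in the other 6 arrays. The higher list mean in that replicate rests largely on these C1q genes. Between genotypes the median log2 fold change of the list was 0.10, with 11 above 0 and 1 below. Aldh1a1, Aldh1a7 and Selenbp1 were lowest in the same replicate. Of 8 megakaryocyte and 8 T and NK cell markers 0 were past the limma threshold. An unadjusted p under 0.05 was found for 1 and 2 of them, beside 4567 of all 18193 genes. The part of B cell, granulocyte or macrophage RNA in the differences of Aldh1a1, Aldh1a7, Aldh2 and Selenbp1 was not tested. The study reports a shift towards less mature erythroid cells in Sod2-/- marrow, and the part of erythroid stage in these differences was not tested either.

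**Figure D4:**
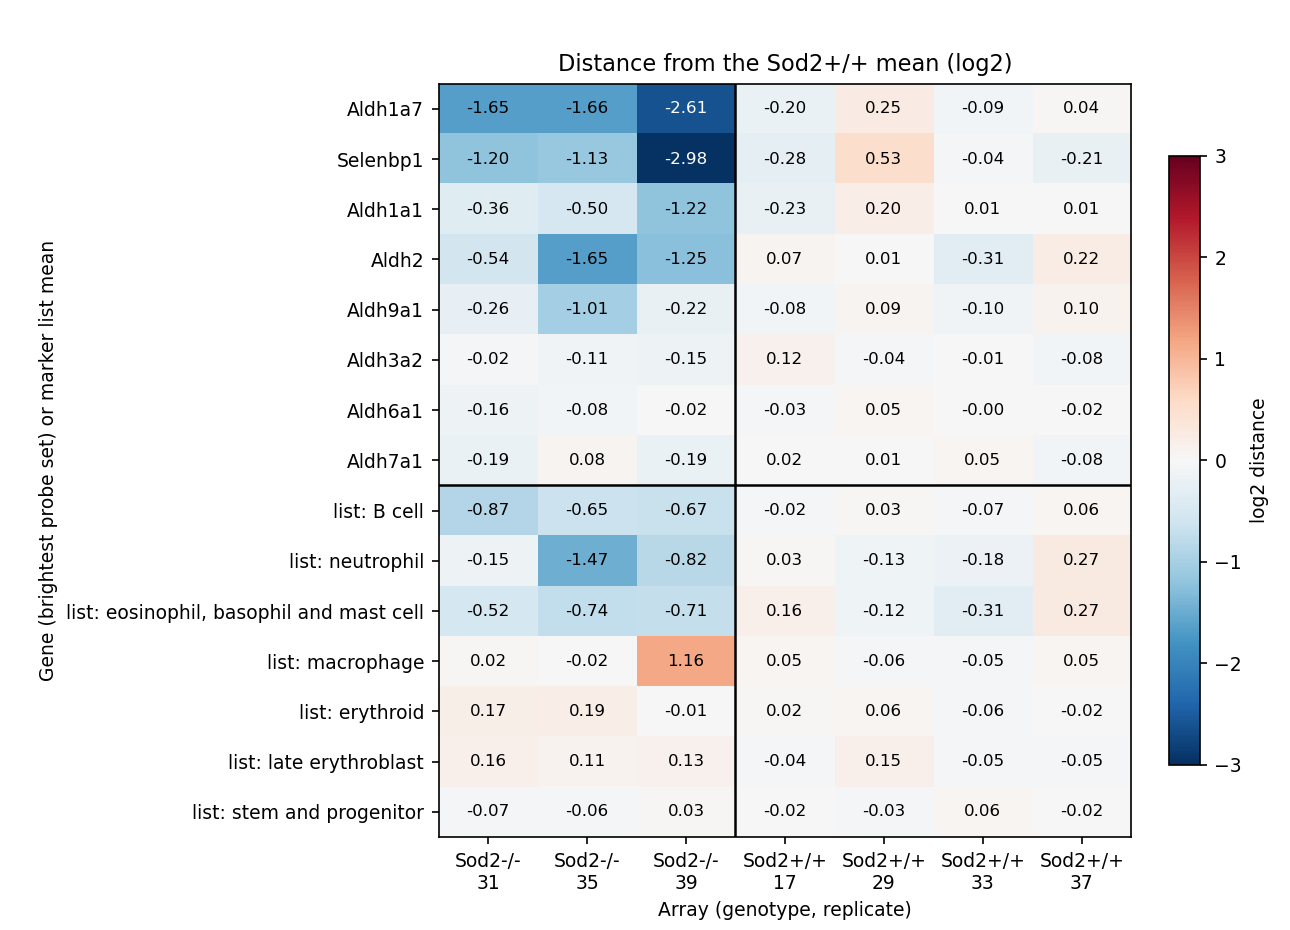
Distance in log2 units from the Sod2+/+ mean (colour and printed value) in each array (x axis, Sod2-/- left of Sod2+/+) for the brightest probe set of the 8 measured genes (upper rows) and the means of marker lists (lower rows). Aldh1a7 and Selenbp1 are lowest in Sod2-/- replicate 39, where the macrophage list is 1.16 higher, largely through C1qa, C1qb and C1qc. Aldh2 is lowest in replicate 35, as is the neutrophil list.

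Arrays came from 2 fluidics stations and 2 chip lots. Station 1 held Sod2-/- replicate 31 with Sod2+/+ replicates 17 and 29, and station 2 held Sod2-/- replicates 35 and 39 with Sod2+/+ replicates 33 and 37. Within stations 1 and 2 the log2 fold changes were -0.35 and -0.87 for Aldh1a1, -1.68 and -2.11 for Aldh1a7, -0.58 and -1.41 for Aldh2, -0.26 and -0.61 for Aldh9a1 and -1.33 and -1.93 for Selenbp1. Sod2-/- replicates 31 and 39 were from one lot, and Sod2-/- replicate 35 and all Sod2+/+ arrays from the other, so within a lot only replicate 35 can be compared. Within it, the log2 fold changes were -0.50 for Aldh1a1, -1.66 for Aldh1a7, -1.65 for Aldh2, -1.01 for Aldh9a1 and -1.13 for Selenbp1. For Aldh1a1, Aldh1a7, Aldh2, Aldh9a1 and Selenbp1, all Sod2-/- values lay below all Sod2+/+ values on these probe sets. Any such subset must therefore give a lower value, so the subsets show only how the size of the difference varied.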

How the data were processed

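RNA of sorted erythroblasts was measured on 7 Affymetrix Mouse430_2 arrays (3 Sod2-/-, 4 Sod2+/+). The deposited values are log2 expression values obtained by the authors with RMA (robust multi-array averaging), a procedure that corrects background, normalizes between arrays and sums the probes of a probe set. The deposited columns do not share one distribution, with 95th percentiles of 8.20 to 8.42 in Sod2-/- and 8.42 to 8.71 in Sod2+/+ samples. The submitters' processing notes also name GCOS 1.3.037. The study's methods name 4 arrays of each genotype for RMA, so a further Sod2-/- array, not analysed here, took part by that account. No further normalization was applied. Other deposited per-array files hold text settings (unit: other), from which fluidics station and chip lot were read.

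After 64 controls were left out, 45037 probe sets were fitted in R 4.3.3 with the lmFit and eBayes functions of limma 3.58.1, with genotype alone as a term. P values were adjusted over all of them by Benjamini-Hochberg, at a threshold of 0.05, and adjusted p values are from this fit unless another setting is named. Of the probe sets, 34945 match 1 gene, 932 several and 9160 none. Genes and lists were read on the brightest probe set of each gene. The depth of an array has no count, and the number of arrays limits precision. On simulated data of the same size, with 5 draws of 200 changed probe sets, 98.1% were found with 6.30% false calls. Both shares hold only for the differences put into those data. The share that 3 against 4 arrays find at the sizes of difference reported above was not tested.

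The chosen genes, the lists and the rule for named genes were set with earlier results of these data known. That rule takes every chosen gene with every probe set, every other aldehyde dehydrogenase past the threshold or else the 3 largest changes, up to 3 members of each list with the largest change past the threshold or else the 2 largest, and the 3 genes most like Aldh1a7 and Selenbp1. Not every gene so taken is printed. Pccb, Hibch, Bckdk, Acadsb, Ethe1, Shmt2, C1qa, C1qb, C1qc, Aldh1a2 and Aldh1a3 were named after their values were seen. RefSeq names and promoters are of GRCm38.p6, and 99.4% of the gene identifiers were found there. Promoters were aligned with Biopython 1.88, and Python 3.11.15 with matplotlib 3.10.9 was used for figures.

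The alternatives were the methods' t-test (equal variances, then unequal ones), trended robust eBayes, array weights (statmod 1.5.0), quantile normalization, centring on the median, an offset of 32 on the linear scale, probe sets above the median alone, station and chip lot as blocks, the mean over probe sets of a gene, and leaving out each array. Fits within a single station, within the lot that holds the Sod2+/+ arrays, and the neighbouring genes were added after the values were seen.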

Additional observations from a re-analysis of the deposited data

Results flagged for a closer look

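In 38 groups of 4 Sod2+/+ arrays, 3 had a highest or lowest array whose gap to the nearest other, divided by the range of the group, exceeded Dixon's 95% critical value for that size. Chance alone flags about 5% of such groups. On Selenbp1 probe set 1417580_s_at, Sod2+/+ replicate 29 read 9.12, above 8.54 to 8.59 in the other Sod2+/+ arrays, with a ratio of 0.909. On Aldh1a2 probe set 1422789_at, Sod2+/+ replicate 29 read 3.48, below 3.69 to 3.74 in the others, with a ratio of 0.834. On Aldh1a3 probe set 1417642_at, Sod2+/+ replicate 37 read 4.25, below the others, which reached 4.54, with a ratio of 0.872. The Sod2-/- group of 3 arrays is too small for this rule.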

How the results depend on the processing

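No paired analysis was possible because the genotypes share no replicate number. Aldh1a1, Aldh1a7, Aldh2, Aldh3a2, Aldh9a1 and Selenbp1 had negative log2 fold changes in all 22 settings tried and Aldh6a1 in the 21 that could be fitted, while Aldh7a1 was negative in 18 of 21. Several settings, such as the t-tests and the trended fit, leave the log2 fold change itself unchanged, and all reuse the same arrays. These counts are therefore not counts of separate checks. The chosen genes had 3 probe sets past the threshold and lower, out of 1275 lower and 255 higher on the whole array. These counts were 0, 3 and 1 by the methods' t-test with equal variances, 0, 0 and 0 with unequal variances, 1, 172 and 59 with an offset of 32, and 0, 0 and 0 within station 1 and within station 2. In the stations, where limma called 0, 3356 and 5905 probe sets had an unadjusted p under 0.05, against 8801 over all arrays and, for the methods' t-test, 7141 (equal variances) and 5643 (unequal). With only probe sets above the median, 5 of the chosen and 2076 of all were lower. Quantile normalization called 2 of the chosen probe sets lower. Over the array it called 826 lower and 656 higher, so 55.7% of calls were lower rather than 83.3%. Centring called 163 higher, and the split was 74.5% with the offset. Station as a block gave 744 lower and 150 higher, chip lot as a block 735 and 82, and the lot holding the Sod2+/+ arrays, fitted alone, 459 and 43. Leaving out 1 array gave 1 to 3 chosen probe sets lower and 0 higher, 98 (without Sod2-/- replicate 35) to 1149 lower and 45 to 171 higher over the array, with 68.5% (without Sod2-/- replicate 35) to 87.0% of calls lower, and 0 other aldehyde dehydrogenase genes in either direction. The 7 pathway lists held 15 falling and 1 rising gene in all. These counts were 0 and 0 by both forms of the methods' t-test, with the offset and within either station, 9 and 2 with quantile normalization, 7 and 0 with station as a block, 4 and 0 with chip lot as a block, and 22 and 1 with only probe sets above the median. Without 1 array, 0 (without Sod2+/+ replicate 29) to 10 fell and 0 to 2 rose. Every pathway gene that passed the threshold kept its sign in all 17 settings besides the t-tests and the fits within 1 station or lot.

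Log2 fold changes moved to -0.0096 for Aldh3a2 with quantile normalization, to -1.42 for Aldh1a7 and -0.024 for Aldh6a1 with the offset, to -0.35 for Aldh1a1, -0.58 for Aldh2 and -0.17 for Aldh6a1 within station 1, to -1.65 for Aldh2, 0.083 for Aldh7a1 and -1.01 for Aldh9a1 with chip lot as a block, with the same values when only the lot holding the Sod2+/+ arrays was fitted, and to -0.12 for Aldh2 and 0.092 for Aldh7a1 when a gene's probe sets were averaged. For the other chosen genes, quantile normalization gave -0.54 for Aldh1a1, -1.84 for Aldh1a7, -0.93 for Aldh2 and -0.12 for Aldh6a1. It gave -0.14 for Aldh7a1, -0.25 for Aldh9a1 and -1.57 for Selenbp1. The cause of these moves was not tested. Leaving out 1 array gave -0.86 to -0.43 for Aldh1a1, -2.14 to -1.65 for Aldh1a7, -1.45 to -0.90 for Aldh2, -0.13 to -0.05 for Aldh3a2, -0.12 to -0.05 for Aldh6a1, -0.19 to -0.05 for Aldh7a1, -0.63 to -0.24 for Aldh9a1 and -2.09 to -1.17 for Selenbp1.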
